A study of Mus musculus with 5 samples.

Results

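The genes of ATR and ATM checkpoint signalling were examined in 6DT1, a line of mouse mammary carcinoma cells, after knockdown of *Arid4b*. The 10 genes were taken by name as *Atr*, *Atrip*, *Topbp1*, *Timeless*, *Tipin*, *Clspn*, *Chek1*, *Atm*, *Chek2* and *Wee1*. All 10 were measured, each by 1 probe set, among the 19938 genes with a probe set of their own on Affymetrix Mouse Gene 1.0 ST arrays. RNA from 5 lines was arrayed once per line, and the values are log2 expression. Lines H3 and H4 each carried a lentiviral hairpin against *Arid4b* in the pLKO.1 vector and make up the knockdown cohort (n = 2 lines). Densitometry of ARID4B protein, with the scrambled control as the unit, gave 0.19 for H3 and 0.15 for H4. The control cohort (n = 3 lines) held H5, a line with another *Arid4b* hairpin in which the protein was 1.02, a line with a scrambled hairpin in pLKO.1, set at 1.00, and untransduced cells, in which it was 1.09. The transduced lines were pools of clones selected with puromycin at 10 µg/ml, and only the untransduced cells had not been selected. With a single array per line, the tests rest on line-to-line spread, some of it perhaps technical.

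ATR and ATM are related kinases that stand at the head of the DNA damage checkpoints. ATR, held by its partner ATRIP, is drawn to single-stranded DNA at stalled replication forks and needs an activator such as TOPBP1, while ATM responds to double-strand breaks. TIMELESS and TIPIN form a complex that travels with the fork, and Claspin, the product of *Clspn*, bridges ATR to its main target kinase CHK1. CHK1 and CHK2 restrain the CDC25 phosphatases, and WEE1 places the inhibitory phosphate on cyclin-dependent kinases that CDC25 removes, so that cells with damaged or unreplicated DNA do not divide.

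The targeted gene was lower in both knockdown lines. On the log2 scale *Arid4b* lay at 6.88 in H3 and 7.35 in H4, while the control lines stood at 8.24 (H5), 8.34 (scrambled) and 8.36 (untransduced). Knockdown minus control was -1.20 (log2, standard error 0.15), with an adjusted p = 0.217 from limma. The SD over all probe sets was 2.25 on the H3 array and 2.29 to 2.30 on the others. Their median was 6.35 on the H3 array and 6.24 to 6.25 on the others. The epithelial keratins *Krt8* and *Krt18* lay above 98.8% of genes on every array, whereas *Epcam* and *Cdh1*, which define epithelium more strictly, lay at 5.61 to 5.75 and 6.05 to 6.16, below the median gene of every array. The mean over 9 epithelial markers was 7.58 to 7.88 in the knockdown lines and 7.70 to 7.79 in the control lines, and none passed the unadjusted threshold. The mean level over 9 macrophage and leukocyte markers was 5.70 to 5.75 in the knockdown lines and 5.64 to 5.68 in the control lines, and over 9 fibroblast and endothelial markers it was 6.00 to 6.12 in the knockdown lines and 5.93 to 5.99 in the control lines, against a median gene at 6.73 to 6.83. These means hide members that lay above the median gene on every array, *Cd14* (8.10 to 8.69), *Col1a1* (7.34 to 7.79), *Pdgfra* and *Col3a1*. Of all these markers *Csf1r* was higher at the unadjusted threshold, as 4.34% of all genes were, and none was lower.

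Of the 10 checkpoint genes, 6 were lower in the knockdown lines and none was higher, taking the study's threshold of an unadjusted p under 0.05, here from limma. The 6 were *Tipin*, *Atm*, *Chek2*, *Chek1*, *Clspn* and *Wee1*. Over all genes 7.61% were lower and 4.34% were higher at that threshold. None of the 10 passed an adjusted p under 0.05 (range 0.242 to 0.818), and 0% of all genes did with limma. Without H4, 1266 genes over the array passed it, none of them among the 10. With an unmoderated equal-variance test 4 of the 10 were lower at the unadjusted threshold and 0 at the adjusted one. The median log2 fold change of the 10 was -0.71, against a median of 0.03 over all genes. Both knockdown lines lay below all 3 control lines for 7 of the 10 genes, whereas 13.5% of all genes lay below in this way and 13.9% above. The 3 genes in which the cohorts overlapped were *Atr*, *Atrip* and *Timeless*. For the other 7 an exact two-sided permutation test gave p = 0.1, the smallest that the 10 splits of 2 against 3 lines allow. The count of 6 was 3 without H4, and lay between 4 and 7 without any other line. Higher genes made up 36.3% of all genes past the unadjusted threshold, a share that became 20.0% with array medians subtracted and 49.4% after another quantile normalization; the checkpoint genes counted as lower were then 8 and 6, with none higher.

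**Figure D1:**
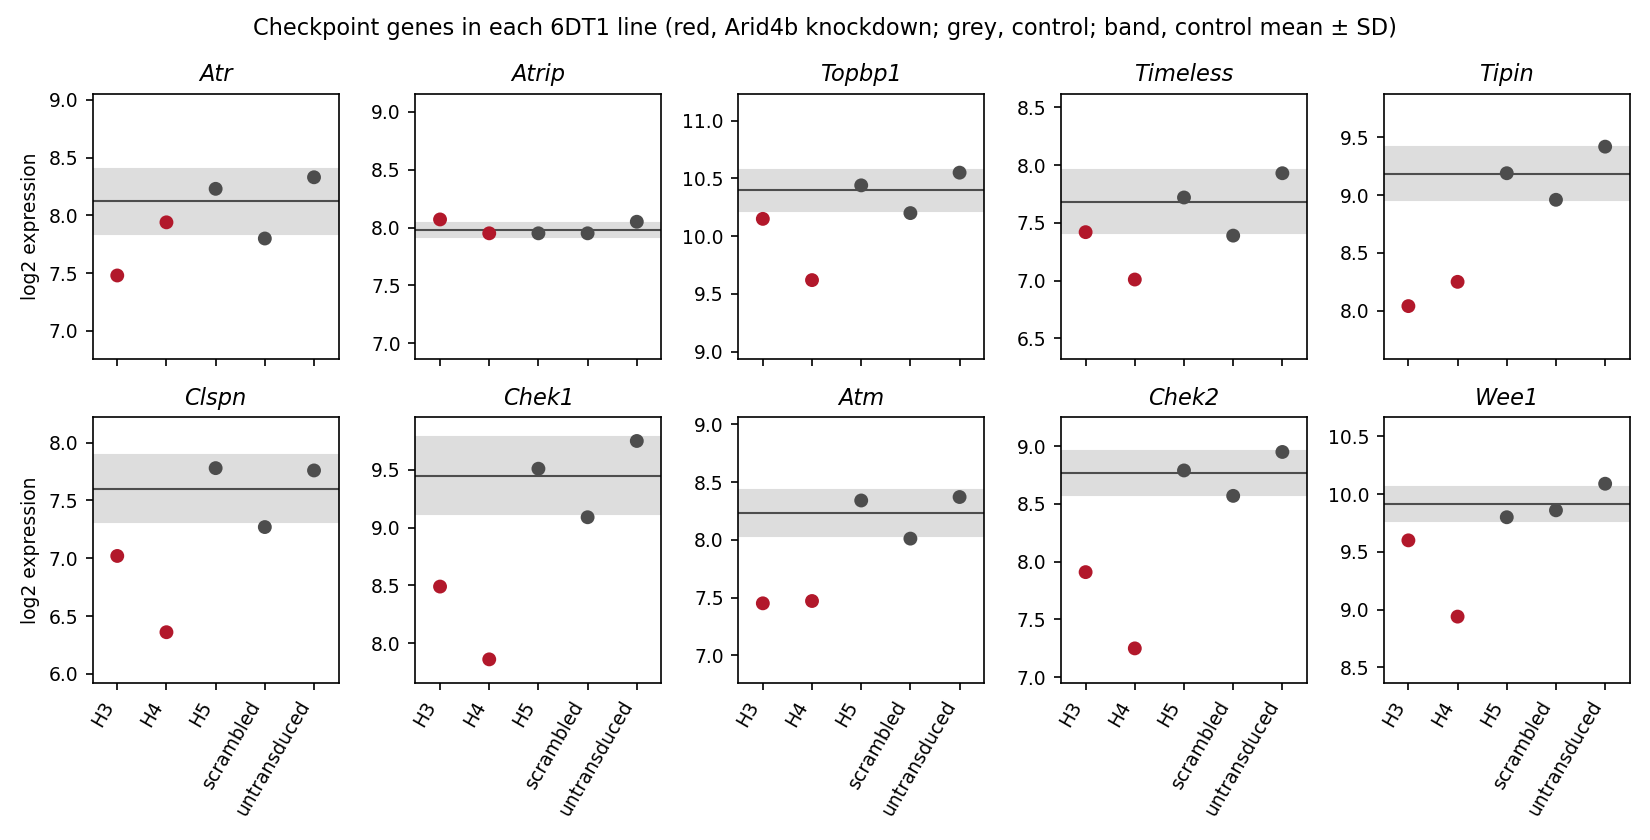
Log2 expression (vertical axis, the same span in each panel) of the 10 checkpoint genes in 5 lines, a point for each array, knockdown lines in red and control lines in grey, and a band for the control mean ± SD (n = 3). *Chek1* lay at 8.49 in H3 and 7.86 in H4, below all control lines, whereas *Atrip* lay between 7.95 and 8.07 in every line.

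**Figure D2:**
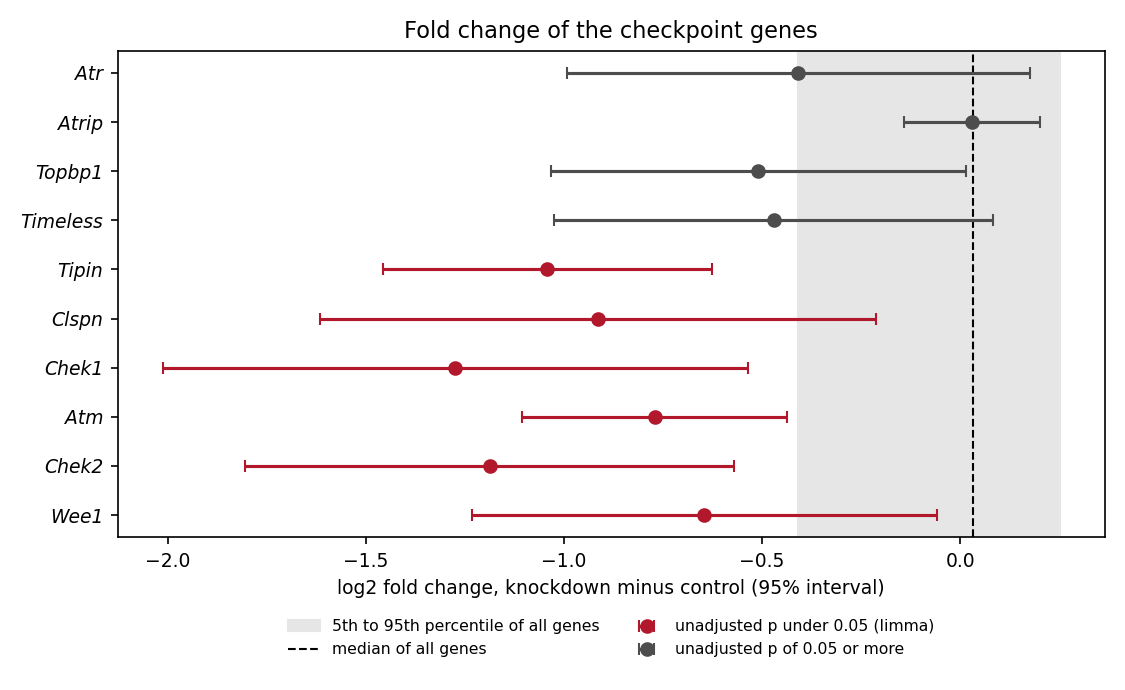
Log2 fold change of each checkpoint gene, knockdown minus control (horizontal axis, points with 95% intervals from limma), in red where the unadjusted p was under 0.05. The shaded band runs from -0.41 to 0.25, the 5th to 95th percentiles of all genes; 8 of the 10 points lie left of it, *Atr* at its edge and *Atrip* near its centre.

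None of the 3 genes at the head of the ATR arm passed the unadjusted threshold. *Atr* lay at 7.48 in H3 and 7.94 in H4, while the control lines stood at 8.23 (H5), 7.80 (scrambled) and 8.33 (untransduced). Only H3 lay below every control line, since H4 lay above the scrambled control. The log2 fold change of *Atr* was -0.41 (standard error 0.22, unadjusted p = 0.129 from limma), and without the scrambled control it was -0.57 and passed the unadjusted threshold (unadjusted p = 0.0453 from limma). *Atrip*, whose product binds ATR and recruits it to DNA coated with the single-strand binding protein RPA, lay at 8.07 in H3 and 7.95 in H4, while the control lines stood at 7.95 (H5), 7.95 (scrambled) and 8.05 (untransduced). The 3 arrays at 7.95 carried the same deposited value, as at least 2 arrays did for 38.4% of all genes. The log2 fold change of *Atrip* was 0.03 (95% interval -0.14 to 0.20), which had the opposite sign without H3 (-0.034) and with array medians subtracted (-0.016). *Topbp1*, the activator of ATR, lay at 10.15 in H3 and 9.62 in H4, while the control lines stood at 10.44 (H5), 10.20 (scrambled) and 10.55 (untransduced). H3 lay only 0.04 below the scrambled control, and the log2 fold change was -0.51 (standard error 0.20, unadjusted p = 0.0543 from limma). Without H3 it was -0.78. With every line kept, *Topbp1* passed the unadjusted threshold with array medians subtracted (unadjusted p = 0.0202 from limma). It also passed with the lowest-level genes left out (unadjusted p = 0.0361 from limma). Under 9 of the 13 alternatives it did not pass.

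The fork-bound genes held both a large and a small difference. *Tipin* lay at 8.04 in H3 and 8.25 in H4, while the control lines stood at 9.19 (H5), 8.96 (scrambled) and 9.42 (untransduced). The gap between the higher knockdown line and the lowest control line was 0.71, the widest among the 10 genes. Its log2 fold change was -1.04 (standard error 0.16, unadjusted p = 0.00163 and adjusted p = 0.242 from limma), a level of 48.5% of the control cohort on the linear scale. *Timeless*, whose product is the partner of TIPIN, lay at 7.42 in H3 and 7.01 in H4, while the control lines stood at 7.72 (H5), 7.39 (scrambled) and 7.93 (untransduced). Its H3 value was higher than that of the scrambled control, and the log2 fold change was -0.47 (standard error 0.21, unadjusted p = 0.0795 from limma). Without the scrambled control it was -0.62 (unadjusted p = 0.0353 from limma). *Clspn* lay at 7.02 in H3 and 6.36 in H4, while the control lines stood at 7.78 (H5), 7.27 (scrambled) and 7.76 (untransduced). H4 was the lowest line by a wide margin, and the log2 fold change was -0.91 (standard error 0.27, unadjusted p = 0.0212 from limma). *Clspn* no longer passed the unadjusted threshold without H4 (-0.59), without H5 (-0.83) or without the untransduced cells (-0.83).

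*Chek1*, *Chek2*, *Atm* and *Wee1* were lower in each knockdown line than in any control line. *Chek1*, the effector kinase of ATR, lay at 8.49 in H3 and 7.86 in H4, while the control lines stood at 9.51 (H5), 9.09 (scrambled) and 9.75 (untransduced). Its log2 fold change of -1.27 (standard error 0.28, unadjusted p = 0.00750 and adjusted p = 0.292 from limma) put it at 41.3% of the control level, and 0.135% of all genes had a lower fold change. Without H4 the log2 fold change of *Chek1* was -0.96 and missed the unadjusted threshold (unadjusted p = 0.0669 from limma). *Chek2*, the effector kinase of ATM, lay at 7.91 in H3 and 7.25 in H4, while the control lines stood at 8.79 (H5), 8.57 (scrambled) and 8.95 (untransduced). Its control lines lay closer together than those of *Chek1*, and the log2 fold change was -1.19 (standard error 0.23, unadjusted p = 0.00490 and adjusted p = 0.290 from limma), a level of 43.9% of control. *Atm* lay at 7.45 in H3 and 7.47 in H4, while the control lines stood at 8.34 (H5), 8.01 (scrambled) and 8.37 (untransduced). Both hairpin lines were nearly equal for *Atm*, and knockdown minus control was -0.77 (standard error 0.13, unadjusted p = 0.00231 and adjusted p = 0.259 from limma). *Wee1* lay at 9.60 in H3 and 8.94 in H4, while the control lines stood at 9.80 (H5), 9.86 (scrambled) and 10.09 (untransduced). The log2 fold change of *Wee1* was -0.65 (standard error 0.22, unadjusted p = 0.0371 from limma). It missed the unadjusted threshold without H4 (-0.32), without H5 (-0.70), without the scrambled control (-0.67) or without the untransduced cells (-0.56). *Tipin*, *Atm* and *Chek2* passed the unadjusted threshold under each of the 13 alternatives.

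The scrambled control was the lowest of the control lines for 8 of the 10 genes, while it was the lowest for 34.2% of all genes. The median of the 10 genes in the scrambled control was 0.42 below the untransduced cells on the log2 scale, with a range over the genes of -0.65 to -0.10, and the median over all genes was 0. H5, transduced and selected with puromycin like the scrambled control, had a median of 0.04 from the control mean over the 10 genes, and the scrambled control one of -0.23. The untransduced cells were the highest control line for 9 of the 10 genes and for 31.8% of all genes. Against the scrambled control alone the median difference of the 10 genes was therefore smaller, at -0.29 in H3 and -0.64 in H4, than against H5 alone, at -0.75 in H3 and -0.86 in H4. These differences between single lines were not tested. *Tipin* was lower than the scrambled control by the most in H3 (-0.91 in H3, -0.71 in H4) and *Chek2* by the most in H4 (-0.66 in H3, -1.32 in H4). *Topbp1* and *Timeless* differed from the scrambled control by -0.04 and 0.03 in H3, and by -0.58 and -0.39 in H4.

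**Figure D3:**
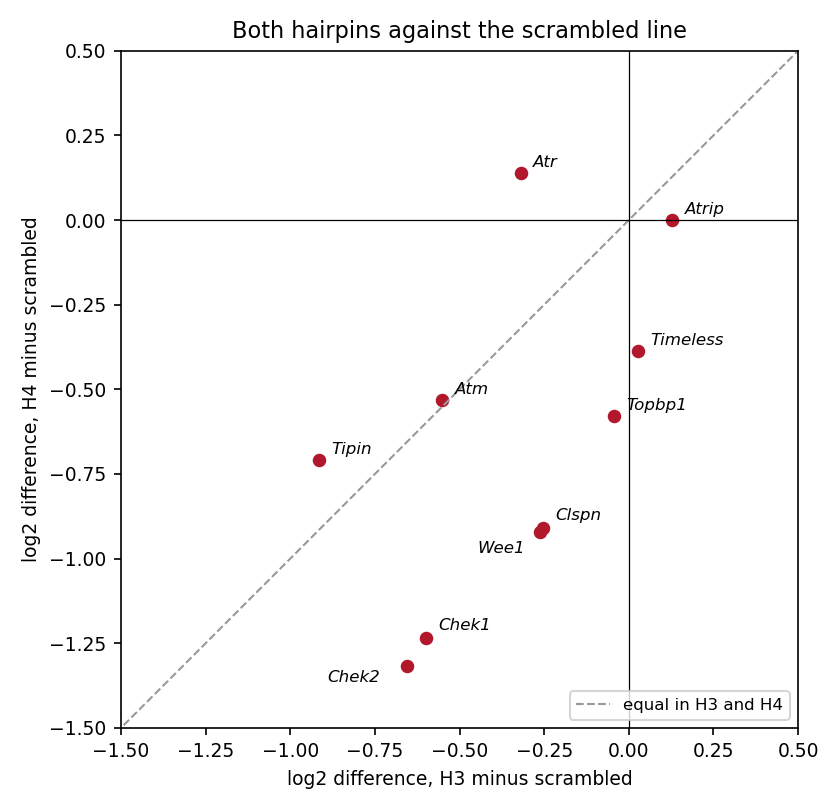
Log2 difference of each checkpoint gene from the scrambled control in H3 (horizontal axis) and in H4 (vertical axis), with 1 point per gene and a dashed line where both hairpin lines are equal. *Chek1*, *Chek2*, *Clspn*, *Wee1*, *Topbp1* and *Timeless* lie well below the line, *Atm* on it, and *Tipin* and *Atr* above it.

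The sizes of the differences were not the same in H3 and H4, which were not tested against each other. H4 lay below H3 for 7 of the 10 genes, as it did for 58.9% of all genes. *Chek1*, *Chek2*, *Clspn* and *Wee1* were lower in H4 than in H3 by between 0.64 and 0.66 on the log2 scale, *Topbp1* by 0.54 and *Timeless* by 0.41. In the other direction *Atr* was 0.46 and *Tipin* 0.21 higher in H4 than in H3. H4 minus H3 was 0.02 for *Atm*.

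Partner genes were compared within each line, for 7 pairs. *Tipin* minus *Timeless* was 0.62 in H3 and 1.24 in H4, with control lines at 1.46 (H5), 1.56 (scrambled) and 1.49 (untransduced), so that both knockdown lines lay below a narrow control range. *Atm* minus *Atr* was -0.03 in H3 and -0.47 in H4, while the control lines stood at 0.11 (H5), 0.20 (scrambled) and 0.04 (untransduced). *Chek1* minus *Chek2* was 0.58 in H3 and 0.61 in H4, while the control lines stood at 0.72 (H5), 0.53 (scrambled) and 0.80 (untransduced). The changes of *Chek1* and *Chek2* therefore differed by -0.09 with overlapping lines, while those of *Tipin* and *Timeless* differed by -0.57 and those of *Atm* and *Atr* by -0.36 without overlap. The largest difference was that of *Chek1* and *Atr*. *Chek1* minus *Atr* was 1.01 in H3 and -0.08 in H4, with control lines at 1.28 (H5), 1.29 (scrambled) and 1.42 (untransduced), and the changes differed by -0.87. Those of *Clspn* and *Topbp1* differed by -0.40 without overlap, those of *Atr* and *Atrip* by -0.44 with overlap, and those of *Atm* and *Chek2* by 0.42, in the other direction and with overlap. The exact two-sided permutation p was 0.1, the smallest possible, for the 4 of 7 pairs without overlap. It was 0.175 after Benjamini-Hochberg adjustment over the pairs. No share over all gene pairs was computed. Among single genes 13.5% lay below all control lines and 13.9% above. The pairs share *Atr*, *Atm*, *Chek1* and *Chek2*, so they are not independent of each other. These probe set values are not absolute amounts, and only the change of a pair between lines can be read.

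Around the ATR arm, the genes of RPA and of the 9-1-1 clamp, the ring that brings TOPBP1 to ATR, were partly lower. Of 11 genes 5 were lower and 6 missed the unadjusted threshold, with a median of -0.30 beside 0.03 over all genes. The counts of this and the following lists stand beside 7.61% lower and 4.34% higher over all genes. *Hus1*, a subunit of the clamp, was at -1.12 (standard error 0.33), and it lay at 7.86 in H3 and 8.90 in H4, while the control lines stood at 9.51 (H5), 9.32 (scrambled) and 9.67 (untransduced). *Etaa1*, which encodes an activator of ATR besides TOPBP1, was at -0.63 (standard error 0.10), *Rpa2* at -0.55 and *Rpa1* at -0.39. *Hus1b*, a relative of *Hus1*, was at 0.10 and did not pass. The count of lower genes was 2 without H5 and 3 without the untransduced cells. Over all genes the lower count, 1517 with every line, was then 776 and 1011. Without H4, which leaves a single knockdown line, the lower count over all genes rose. It then fell in the lists below for break sensing, CDC25 and cyclins, recovery, replisome and proliferation.

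In the ATM arm 11 of 13 listed genes of break sensing and its mediators had a probe set of their own after filtering, all but *Rnf8* and *Rbbp8*. Of these 6 were lower and none was higher, with a median of -0.37. *Brca1* had the largest difference at -1.02 (standard error 0.29), and *H2ax*, the histone variant that ATM phosphorylates beside breaks, was at -0.62. *Rad50* and *Nbn*, subunits of the complex that brings ATM to breaks, were at -0.52 and -0.50. *Trp53bp1*, a mediator at breaks, was at -0.0032 (standard error 0.094) and did not pass. The count of lower genes was 2 without H5, 3 without the untransduced cells and 9 without the scrambled control, and it was 10 with array medians subtracted. Over all genes the lower counts were then 776, 1011, 1596 and 2041. From the control mean *Brca1* differed by -0.63 in H3 and -1.42 in H4, and *Rad50* by -0.67 and -0.38.

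The relatives of ATR and ATM in the same kinase family had small log2 fold changes. *Mtor* was at 0.01 (95% interval -0.21 to 0.23), and *Prkdc*, *Smg1* and *Trrap* did not pass either. With the genes of the chaperone complex that stabilizes these kinases the list held 7 genes, with a median of -0.02. Of these 1 was lower, *Tti1* at -0.35, and 1 was higher, *Telo2* at 0.19. Over all genes 7.61% were lower and 4.34% higher, and 1 call each way among 7 genes is hard to set apart from that. Both calls were lost under many alternatives. *Tti1* did not pass without H3, H5 or the untransduced cells, and no gene of the list was lower under 6 of the 13 alternatives. *Telo2* did not pass without H3, the scrambled control or the untransduced cells, and no gene of the list was higher under 9 of the 13, among them array medians subtracted.

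The cell cycle genes on which the checkpoint kinases act, listed with relatives of *Wee1*, were mostly lower. The list held CDC25 phosphatases, cyclin-dependent kinases, cyclins and the *Wee1* relatives *Pkmyt1* and *Wee2*. Of its 12 genes 11 had a probe set of their own after filtering, all but *Ccnb1*. Of these 9 were lower, among them *Pkmyt1* at -0.44, and none was higher, with a median of -0.77. *Ccne2*, a cyclin of the entry into S phase, was at -1.68 (standard error 0.25). *Cdc25c*, the phosphatase that CHK1 and CHK2 restrain, was at -1.44 (standard error 0.26), *Ccna2* at -1.17 and *Ccnb2* at -0.96. *Wee2*, the oocyte relative of *Wee1*, was at 0.12 and did not pass. It lay at 4.13 in H3 and 3.89 to 3.91 in the other lines, with only 4.68% of genes at a lower mean level. The count of lower genes was 4 without H5 or without the untransduced cells, where the count over all genes fell as well. Of 5 examined genes of the p53 arm, among 7 listed, 2 were higher and none was lower. *Trp53*, the gene of p53 itself, and *Cdkn1a* were listed but had no probe set of their own after filtering, so they were not examined. The counts were the same when any one control line was left out. *Mdm2*, which encodes the ubiquitin ligase of p53 and is also its target, lay at 11.32 in H3 and 11.16 in H4, while the control lines stood at 10.61 (H5), 10.76 (scrambled) and 10.82 (untransduced) (log2 fold change 0.50, standard error 0.09). *Ppm1d*, a phosphatase that turns the checkpoint off, was at 0.24 (standard error 0.04), and *Mdm4* was at -0.02 and did not pass. Of 11 genes of checkpoint recovery and protein turnover 5 were lower and none was higher, with a median of -0.19. *Plk1*, which drives recovery by marking Claspin and WEE1 for destruction, was at -1.01, its activators *Aurka* and *Bora* were at -0.98 and -0.96, *Cdc14b* at -0.67, and *Fbxo6* at 0.02 without passing. The count of lower genes was 2 without H5 and 1 without the untransduced cells, where the count over all genes fell as well. From the control mean *Plk1* differed by -0.45 in H3 and -1.57 in H4, and *Cdc14b* by -0.91 and -0.43.

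Genes of the replisome and of proliferation were lower alongside the checkpoint genes. Of 18 replisome partners of the fork-bound complex, 16 were lower and none was higher, with a median of -0.75. *Wdhd1* was at -1.23, *Mtbp* at -1.22, *Dbf4* at -1.20 and *Ticrr* at -1.05, and *Recql4* was at -0.32 and did not pass. Of 7 proliferation markers 6 were lower, with a median of -0.96. *Mki67*, the common marker of cycling cells, lay at 10.04 in H3 and 9.29 in H4, while the control lines stood at 10.74 (H5), 10.55 (scrambled) and 10.61 (untransduced). *Rrm2* was at -1.09 and *Tyms* at -1.02, and *Birc5* was at 50.1% of its control level. *Ccnd1*, which encodes cyclin D1, lay between 11.69 and 11.78 in all lines and did not pass. Leaving out H5 left 4 lower replisome and 2 lower proliferation genes, and leaving out the untransduced cells left 9 and 2. The count over all genes fell as well. Without H4, which leaves a single knockdown line, fewer genes of both lists were lower, while the lower count over all genes rose. From the control mean *Mtbp* differed by -0.82 in H3 and -1.61 in H4, and *Rrm2* by -0.67 and -1.51. In the other direction *Wdhd1* differed by -1.37 in H3 and -1.08 in H4. The part of these genes in the values of the checkpoint genes was not tested. In such bulk RNA, fewer cells of a cycle phase and less RNA per cell cannot be told apart.

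**Figure D4:**
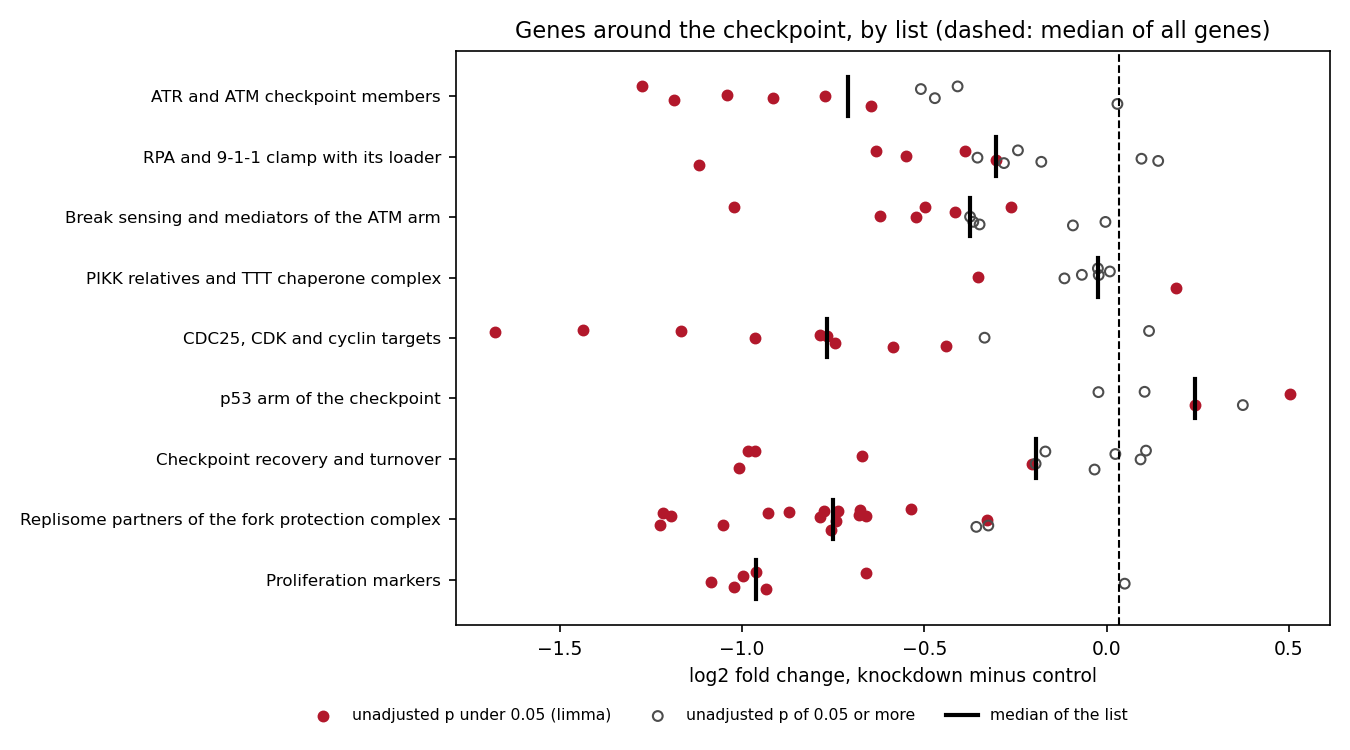
Log2 fold change, knockdown minus control (horizontal axis), of each gene of the checkpoint set and of the lists around it (rows), with filled points for an unadjusted p under 0.05 and black bars for list medians. The medians ran from -0.96 for proliferation markers to 0.24 for the p53 arm, and that of the ATR and ATM relatives lay at -0.02.

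Promoter windows from 250 bases before to 50 bases after the transcript start were examined for 8 of the 10 genes in RefSeq sequences of build GRCm38.p6. *Tipin* and *Wee1* had no entry. The windows of *Atm*, *Atr*, *Atrip*, *Chek1* and *Topbp1* lie on chromosome 9, that of *Chek2* on chromosome 5, that of *Clspn* on chromosome 4 and that of *Timeless* on chromosome 10. They were searched on both strands for the E2F words, which were TTCCCGC, then TTCGCGC, then TTGCCGC and also TTGGCGC, since E2F factors are known to bind such words ahead of genes of S phase, and for the word CCAAT of the factor NF-Y. An E2F word stood in 5 of the 8 windows, in those of *Atm*, *Chek1*, *Chek2*, *Clspn* and *Topbp1*, whereas 9.57% of all 32851 promoter windows held one. The words are rich in G and C, and these 5 windows held 55.3% to 73.7% G and C. Those of *Atr*, *Atrip* and *Timeless* held 57.3%, 65.0% and 52.3%, and the median over all windows was 52.7%. The share over all windows was not matched for this content. CCAAT stood in 4 of the 8 windows and in 37.4% of all windows, and TTTGAA, a word of the CHR element of mitotic genes, in 0 of the 8 and in 17.9% of all windows. The words were chosen after the expression values had been seen. A match is a description of the letters, and binding was not measured. Of the 4 genes with a window that passed the unadjusted threshold each had an E2F word, and of the 4 that did not pass *Topbp1* had a pair of overlapping words and *Atr*, *Atrip* and *Timeless* had none. The 30 bases around each of the 6 matches are shown so that the words can be compared, written along the gene's own strand with the E2F word of that match, or its reverse complement, in capitals. The windows of the overlapping *Topbp1* words are given 1 after the other.
Chek1, chr9:36726609-36726638, minus strand: cagcatgacgcaagcaggttttgGCGGGAA
Chek2, chr5:110839819-110839848, plus strand: gcgggattagccGCGGGAAaccaagacgtc
Atm, chr9:53536639-53536668, minus strand: atagagccggaaGCGGGAAggcgtgcgtac
Clspn, chr4:126556989-126557018, plus strand: taccgcgtctggGCGCGAAagctcgaactt
Topbp1, chr9:103305183-103305212, plus strand: gcgtccgctcggTTGGCGCgaaagtcggtt
Topbp1, chr9:103305186-103305215, plus strand: tccgctcggttgGCGCGAAagtcggttccc
*Chek1*, *Chek2* and *Atm* shared the word TTCCCGC on the opposite strand. It lay at bases 44 to 50 after the start in *Chek1*, at 16 to 22 in *Atm* and at -152 to -146 in *Chek2*. The word of *Clspn* lay at bases 22 to 28, and those of *Topbp1* between -132 and -123.

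The 250 bases before the start of *Chek2*, which passed under every alternative, and of *Atrip*, the gene nearest to no difference, show how the matches lie. The E2F words and CCAAT, on either strand, are in capitals.
Chek2, chr5:110839733-110839982, plus strand: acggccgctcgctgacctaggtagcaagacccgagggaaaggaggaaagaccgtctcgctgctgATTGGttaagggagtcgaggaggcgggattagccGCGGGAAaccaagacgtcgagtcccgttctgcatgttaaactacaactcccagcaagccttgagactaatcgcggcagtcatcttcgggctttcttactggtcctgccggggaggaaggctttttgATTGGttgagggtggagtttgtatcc
Atrip, chr9:109074125-109074374, minus strand: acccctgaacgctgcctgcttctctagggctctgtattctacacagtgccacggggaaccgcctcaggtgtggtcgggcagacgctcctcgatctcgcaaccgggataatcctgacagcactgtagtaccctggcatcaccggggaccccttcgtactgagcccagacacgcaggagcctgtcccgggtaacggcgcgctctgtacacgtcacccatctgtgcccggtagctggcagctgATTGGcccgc
*Chek2* held an E2F word between a pair of CCAAT words on the opposite strand, and *Atrip* held a single CCAAT word near the start.

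**Figure D5:**
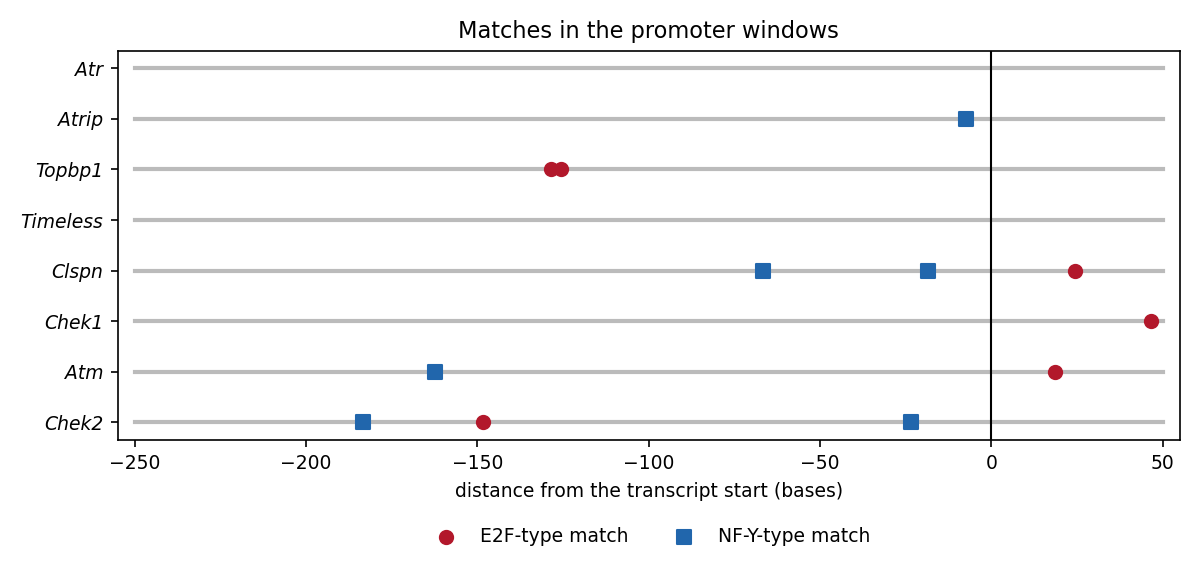
Positions of E2F words (red circles) and of the NF-Y word (blue squares) in the promoter windows of the 8 genes with an entry, as distance in bases from the transcript start (horizontal axis). The windows of *Atr* and *Timeless* hold neither, and that of *Chek1* holds an E2F word at its right end.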

How the data were processed

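The deposited values are log2 expression values of 35556 probe sets that the authors normalized with RMA in Partek Genomics Suite, with no version stated. Lines were grouped by the ARID4B level in their labels. Of 23410 probe sets in the platform annotation, 21789 had 1 symbol and 1621 several, which were left out. Listed genes without a probe set of 1 symbol were not examined, which does not show that the array lacks them. Each of the 19938 genes was represented by its probe set with the highest average level. The knockdown and control cohorts were set against each other in R 4.3.3 by lmFit and eBayes of limma 3.58.1 (3 residual and 1.58 prior degrees of freedom), with Benjamini-Hochberg adjustment over all genes. This fit was first checked on simulated arrays. Single values and pairs were tested by exact permutation. The checkpoint genes, the lists, the tests and the alternatives were chosen with earlier results of these data known. From each list the text named up to 4 genes of largest log2 fold change past the unadjusted threshold and the one nearest to 0. *H2afx* in the lists was matched to *H2ax*. Two-sided tests were used. Figures were drawn with matplotlib 3.10.9.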

Additional observations from a re-analysis of the deposited data

How the results depend on the processing

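The median log2 fold change of the 10 checkpoint genes ran from -0.86 to -0.61 when each line was left out in turn, and the count of lower ones from 3 to 7. *Atrip* was -0.016 with array medians subtracted, and ran from -0.034 (without H3) to 0.0937 (without H4) when lines were left out, against 0.03. Over all genes, lower and higher counts at the unadjusted threshold were 1517 and 866. The lower count was 835 with an unmoderated equal-variance test. The higher count was 509 with array medians subtracted and 1300 after another quantile normalization. With array weights the counts were 905 and 382, and with puromycin selection as a covariate, which is by construction the same as leaving out the untransduced cells, 1011 and 508. Leaving out each line gave 776 to 1986 lower and 408 to 4901 higher genes; the highest was without H4, where the lone knockdown line is given the spread of the controls. At an adjusted p under 0.05 from limma 1266 genes passed without H4 and 4 with the lowest-level genes left out, and 2 did with the unmoderated test, against 0, and none was a checkpoint gene. The causes were not tested. The unmoderated test gave 2 lower genes of the RPA and clamp list, 2 of the ATM arm, 4 of the CDC25 and cyclin list, 1 of recovery, 5 of the replisome and 2 of proliferation, and none lower or higher among the ATR and ATM relatives. Array weights gave 3 lower genes of the ATM arm, 9 of the replisome and none lower or higher among the relatives. *Arid4b* ran from -1.44 to -0.97 and passed the unadjusted threshold under each of the 13 alternatives. No paired analysis was possible because the labels give no replicate numbers that the cohorts share. The number of arrays limits the precision.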
